A study of Mus musculus with 6 samples.

Results

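The angiopoietin-Tie axis is a ligand and receptor system of blood vessels. It was examined through 7 genes, namely the ligand genes *Angpt1*, *Angpt2* and *Angpt4*, the receptor genes *Tek* (which encodes Tie2) and *Tie1*, the phosphatase gene *Ptprb* and the matrix protein gene *Svep1*. The 7 genes were taken by name from the 56980 genes of the deposited counts, and they were chosen by their values in the TranspExer to TranspCtrl comparison, together with the *Angpt2* to *Angpt1* ratio per sample. All differences of these genes and of that ratio between the groups are therefore given as a description, without a test. All 7 genes had counts in every sample and passed the low-count filter that left 15190 genes for testing.

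RNA-Seq was performed on bone marrow mesenchymal stem cells (BM MSCs), marrow stromal cells that grow attached to plastic, from female mice. All mice of both groups underwent ovariectomy (OVX) at 8 weeks of age, received an antibiotic cocktail that depletes the gut microbiota, and then received fecal microbiota transplantation (FMT) for 8 weeks. Donors, described by the paper as osteoporotic, were sedentary mice in the TranspCtrl group (3 samples) and treadmill-exercised mice in the TranspExer group (3 samples), and the comparison asks how the donors' exercise is reflected in the transcriptome of the recipients' BM MSCs. The strain was not given in the sources used here, no transgene or deletion was described, and the cells came from flushed marrow kept in culture for 7 days with no sorting step described. Neither the labels nor the methods say whether the samples came from separate animals or pools, so the p-values given for other genes measure the spread between these samples, which may be partly technical.

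In the vessel wall, angiopoietin-1 from perivascular, stromal and blood-forming cells activates the receptor tyrosine kinase Tie2 on endothelial cells and keeps vessels quiet. Angiopoietin-2 is stored in and released by endothelial cells and, depending on the context, blocks or weakly activates Tie2, which loosens the vessel and lets it sprout. Tie1 is a related receptor that modulates Tie2, VE-PTP (the product of *Ptprb*) removes phosphate from Tie2, and in the marrow Tie2 is also carried by hematopoietic stem cells.

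The total count per sample was between 17647682 and 21319228, and the median was 19577988. The detection floor was set at 3 counts, which was worth 0.17 CPM (counts scaled to the size of the library) or less in any sample. TranspCtrl replicate 1 stood apart from the other TranspCtrl samples, at distances of 62.8 and 60.2 in log2 CPM over all tested genes against 37 between TranspCtrl replicates 2 and 3. The distances within the TranspExer group were 42.8 to 43.9, and those between groups were 82.7 to 110. The cultures held *Col1a1*, a collagen gene of stromal cells, with means of 8042.5 ± 3017.9 CPM for TranspCtrl and 7222.2 ± 459.6 CPM for TranspExer (SD, n = 3 each). They also held the leukocyte gene *Ptprc* at 281.3 ± 11.4 and 293.7 ± 8.44 CPM (SD, n = 3 each) and the macrophage receptor gene *Csf1r* at 881.6 ± 33.0 and 928.1 ± 41.9 CPM (SD, n = 3 each), so markers other than those of MSCs were present in both groups.

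The 3 ligand genes are relatives, and their sequences bear on whether reads could have been assigned to the wrong one. The last 90 coding bases, which belong to the fibrinogen-like domain that binds Tie2, are shown because this is the part through which the ligands share a receptor. Capitals mark bases that differ from *Angpt1* in the alignment. The stretches are taken from GENCODE M21 transcripts in mm10, at chr15:42426973-42427062 (minus strand) for *Angpt1*, chr8:18692051-18692140 (minus strand) for *Angpt2* and chr2:151944562-151944651 (plus strand) for *Angpt4*.
Angpt1: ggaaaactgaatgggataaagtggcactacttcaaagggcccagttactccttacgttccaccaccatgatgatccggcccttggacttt
Angpt2: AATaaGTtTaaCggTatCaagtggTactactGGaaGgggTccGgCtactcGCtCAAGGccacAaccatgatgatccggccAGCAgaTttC
Angpt4: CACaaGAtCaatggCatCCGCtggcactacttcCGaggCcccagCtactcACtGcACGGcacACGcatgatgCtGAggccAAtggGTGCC
Of these 90 bases, 30 differed between *Angpt2* and *Angpt1*, and 35 between *Angpt4* and *Angpt1*. Over the whole coding sequences, 66.1% of aligned bases were identical between *Angpt1* and *Angpt2*, 62.0% between *Angpt1* and *Angpt4*, and 65.2% between *Angpt2* and *Angpt4*. The receptor genes *Tek* and *Tie1* were identical at 63.5% of aligned coding bases. No window of 31 bases was shared between the transcripts of any 2 ligand genes or between those of *Tek* and *Tie1*, whereas *Angpt1* and *Ptprb* shared 2 such windows.

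In mm10, *Angpt1* (ENSMUSG00000022309) lies at chr15:42424723-42676977 on the minus strand, *Angpt2* (ENSMUSG00000031465) at chr8:18690263-18741562 on the minus strand and *Angpt4* (ENSMUSG00000027460) at chr2:151911210-151945337 on the plus strand. Of the others, 3 are on chromosome 4, with *Tek* (ENSMUSG00000006386) at chr4:94739289-94874976 (plus strand), *Tie1* (ENSMUSG00000033191) at chr4:118471191-118490061 (minus strand) and *Svep1* (ENSMUSG00000028369) at chr4:58042442-58206859 (minus strand). *Ptprb* (ENSMUSG00000020154) lies at chr10:116275523-116389535 on the plus strand. *Angpt2* lies opposite to *Mcph1*, a chromosome condensation gene on the other strand, and the counting was not stated to use strand. *Mcph1* had 263 to 401 counts per sample and an edgeR adjusted p of 0.126 for a log2 fold change of 0.30 with a standard error of 0.13. The antisense gene *Gm17473* at *Angpt1* had at most 3.38 counts in any sample, and the small genes *Gm47625* and *Gm26495* within *Ptprb* had 0. *Gm26889*, a long noncoding RNA gene opposite to *Svep1*, had no row in the counts used here.

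The 250 bases before the start of *Tek* and *Angpt4* are shown because *Tek* is the main receptor and *Angpt4* the ligand with the largest decrease. They come from RefSeq (GRCm38.p6), at chr4:94739039-94739288 and chr2:151910957-151911206, both on the plus strand. Capitals mark the letters GGAA, the core of sites for ETS factors, a family with well known roles in endothelial cells, searched on both strands.
Tek: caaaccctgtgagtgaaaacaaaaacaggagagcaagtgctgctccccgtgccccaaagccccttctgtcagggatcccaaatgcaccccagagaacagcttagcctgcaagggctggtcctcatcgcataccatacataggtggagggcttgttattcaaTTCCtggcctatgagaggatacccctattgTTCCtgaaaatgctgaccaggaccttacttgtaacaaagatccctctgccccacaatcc
Angpt4: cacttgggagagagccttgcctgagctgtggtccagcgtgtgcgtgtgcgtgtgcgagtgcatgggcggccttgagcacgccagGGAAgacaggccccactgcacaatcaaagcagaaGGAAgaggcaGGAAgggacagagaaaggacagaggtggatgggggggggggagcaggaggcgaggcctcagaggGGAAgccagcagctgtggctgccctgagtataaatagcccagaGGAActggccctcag
These letters occurred 2 times before *Tek* and 5 times before *Angpt4*. RefSeq promoters (250 bases before to 50 bases after the start) were matched for 4 of the 7 genes, and in the other two of these 4 the letters occurred 9 times (*Tie1*) and 6 times (*Svep1*). Across all 32851 promoters of this length, 96.0% held at least 1 match and the median was 3 matches, so a match by itself does not set these genes apart. The GATA letters AGATAA occurred once, in *Tek*, and in 11.2% of all promoters, and TATAAA occurred in *Angpt4* and *Svep1* and in 13.6% of all promoters. Neither TGTTTA (FOX, 13.4% of promoters) nor ACAATG (SOX, 12.6%) occurred in the 4 windows.

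Of the 7 genes, 4 were higher and 3 lower in TranspExer. Differentially expressed genes (DEGs) had to differ 2-fold or more in either direction and to reach an adjusted p-value below 0.05. By that definition 3 of the 7 genes counted as upregulated (*Angpt2*, *Tie1* and *Ptprb*), where 3.5% of all 15190 tested genes did, and 1 as downregulated (*Angpt4*), where 5.28% of all did. By the adjusted p-value alone, 4 of the 7 were higher and 2 lower, against 16.6% and 15.5% of all tested genes. Values of TranspCtrl and TranspExer samples were fully separated for 7 of the 7 genes and for 52.4% of all tested genes. Since the 7 genes were chosen by this comparison, nothing is read from these counts. Among the 7 genes, the nearest to the 2-fold limit were *Angpt4* past it, at a fold of 2.14, and *Tek* short of it, at 1.61.

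**Figure D1:**
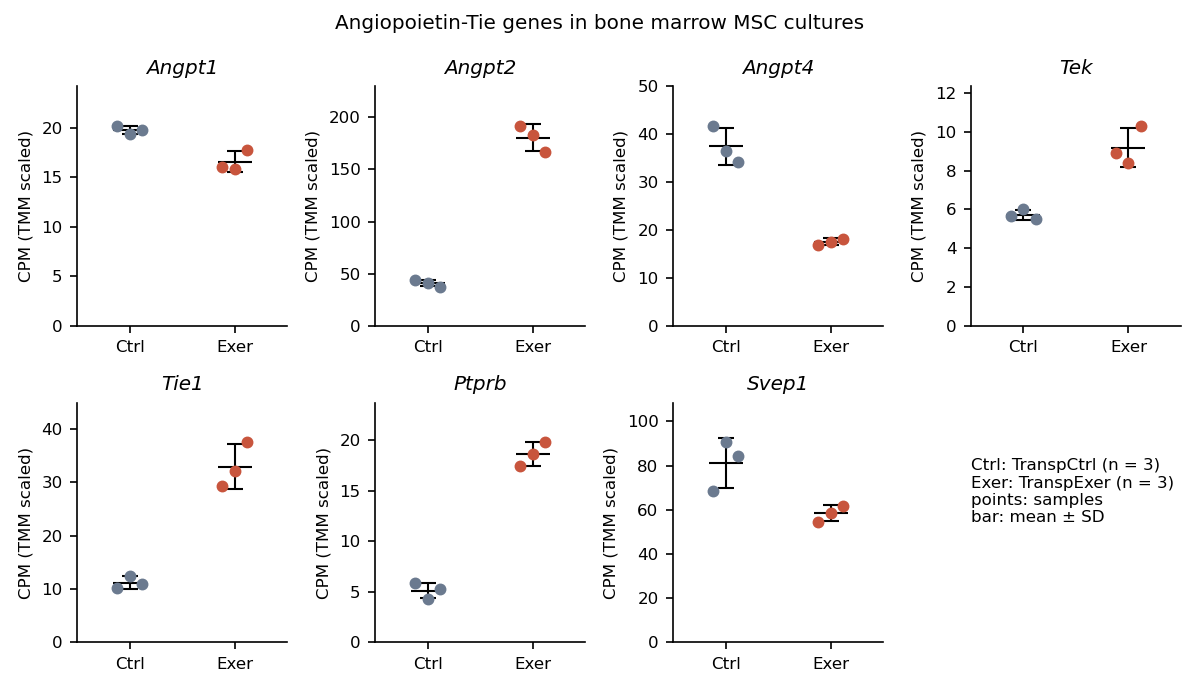
CPM scaled with TMM factors (vertical axis, linear, from 0) of each of the 7 genes in the 3 TranspCtrl and 3 TranspExer samples. Points are samples and bars give mean ± SD. The 3 TranspExer samples lie above all TranspCtrl samples for *Angpt2*, *Tek*, *Tie1* and *Ptprb*, and below them for *Angpt1*, *Angpt4* and *Svep1*.

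The plot of CPM by gene shows every sample, and the ligands are described first. *Angpt2*, the ligand that endothelial cells release and that favours sprouting, stood at 43.6, 41.0 and 37.7 CPM in TranspCtrl replicates 1, 2 and 3. In TranspExer replicates 1, 2 and 3 it stood at 191.7, 183.0 and 166.4 CPM, from 3148.97 to 3665 estimated counts against 798 to 893 in TranspCtrl. All TranspExer samples were high, and the lowest of them was far above the highest TranspCtrl sample. The mean went from 40.7 ± 2.98 to 180.4 ± 12.9 CPM (SD, n = 3 each), a log2 fold change of 2.15 (standard error 0.09) or 4.43-fold. Ranked by log2 fold change among the 9675 tested genes with a mean of at least 10 CPM, *Angpt2* was the 11th highest.

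*Angpt1*, which encodes the activating Tie2 ligand, stood at 20.2, 19.4 and 19.8 CPM in TranspCtrl and at 16.1, 15.9 and 17.8 CPM in TranspExer. The counts behind these values were 377 to 425 and 274 to 358.87. The groups did not overlap, but TranspExer replicate 3 came close to the TranspCtrl samples and the difference was small. The log2 fold change was -0.25 (standard error 0.09), 1.19-fold lower in TranspExer.

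*Angpt4*, the least studied of the ligand genes, stood at 41.7, 36.5 and 34.1 CPM in TranspCtrl and at 16.8, 17.6 and 18.2 CPM in TranspExer. The counts were 711 to 854 and 302 to 366. All TranspExer values were low and close to each other, whereas TranspCtrl replicate 1 was the highest of all. The means were 37.4 ± 3.87 and 17.5 ± 0.695 CPM (SD, n = 3 each), with a log2 fold change of -1.10 (standard error 0.10), and of -1.01 without TranspCtrl replicate 1.

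The *Angpt2* to *Angpt1* ratio sets the sprouting ligand against the quieting one within each sample, so that it does not depend on the scaling of the library. The ratio of their counts was 2.16, 2.12 and 1.91 in the TranspCtrl samples and 11.9, 11.5 and 9.33 in the TranspExer samples, in the order of their replicate numbers. The lowest TranspExer ratio was above every TranspCtrl ratio. The mean ratio was 2.06 ± 0.136 in TranspCtrl and 10.9 ± 1.39 in TranspExer (SD, n = 3 each), 5.3 times as high. *Angpt2* contributed 65.6% to 68.3% of the counts of both genes in TranspCtrl (95% Wilson intervals from 62.9% to 70.8% over the samples) and 90.3% to 92.3% in TranspExer (from 89.3% to 93.1%). These intervals cover counting error only.

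Levels of different genes were compared per length, as TPM (counts per length, scaled to the same total in every sample) from the deposited gene lengths. On this scale the ratio of *Angpt2* to *Angpt1* was 2.47 ± 0.162 in TranspCtrl and 13.1 ± 1.67 in TranspExer (SD, n = 3 each). The summed TPM of the 3 ligand genes was 73.0, 67.5 and 61.9 in TranspCtrl and 130.5, 129.9 and 121.7 in TranspExer, 1.89 times as high on average. The make-up of this sum also differed. *Angpt4* held the largest share in TranspCtrl, at 49.9% ± 1.21, with *Angpt2* at 35.6% ± 0.608 and *Angpt1* at 14.5% ± 0.982 (SD, n = 3). In TranspExer *Angpt2* held 81.6% ± 1.79, *Angpt4* 12.1% ± 1.09 and *Angpt1* 6.3% ± 0.719 (SD, n = 3). The order of *Angpt2* and *Angpt4* was thus opposite in the groups, with a ratio of 0.715 ± 0.0262 per length in TranspCtrl and 6.78 ± 0.745 in TranspExer (SD, n = 3 each). The ratio of *Angpt4* to *Angpt1* per length was 3.45 ± 0.308 and 1.93 ± 0.0768 (SD, n = 3 each).

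**Figure D2:**
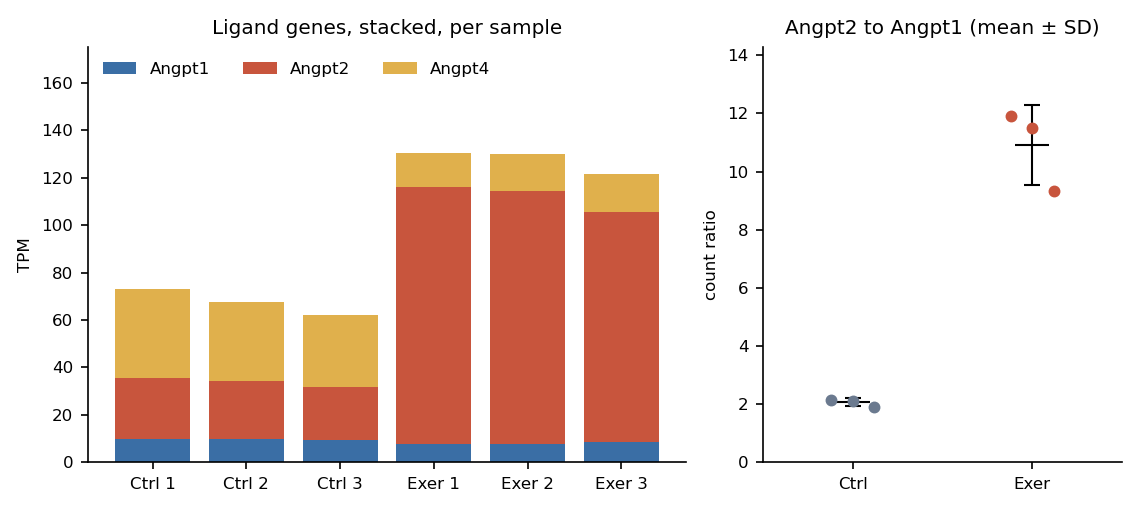
Left, stacked TPM of *Angpt1*, *Angpt2* and *Angpt4* in each of the 6 samples (linear axis from 0). Right, the *Angpt2* to *Angpt1* count ratio per sample (points) with mean ± SD. The stack is between 61.9 and 73.0 TPM in the TranspCtrl samples and between 121.7 and 130.5 TPM in the TranspExer samples, where most of it is *Angpt2*, and the ratio is between 1.91 and 2.16 in TranspCtrl and between 9.33 and 11.9 in TranspExer.

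The stacked ligand plot shows the sum and its parts side by side. The part below, *Angpt1*, is nearly as thick in both groups, and the *Angpt2* part accounts for the taller TranspExer stacks.

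Both receptor genes were higher in TranspExer, by different amounts. *Tek*, which encodes Tie2, the receptor that binds the angiopoietins, stood at 5.66, 6.01 and 5.49 CPM in TranspCtrl and at 8.89, 8.37 and 10.3 CPM in TranspExer. With 116 to 118 and 144 to 208 counts per sample, it was among the least abundant of the 7 genes. The groups did not overlap, TranspExer replicate 3 was the highest, and the log2 fold change was 0.69 (standard error 0.13), 1.61-fold higher in TranspExer.

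*Tie1*, the co-receptor that binds no angiopoietin on its own, stood at 10.3, 12.5 and 10.9 CPM in TranspCtrl and at 29.3, 32.1 and 37.5 CPM in TranspExer. Its counts were 210 to 243 and 552 to 754. Every TranspExer sample was far above every TranspCtrl sample, with TranspExer replicate 3 again the highest. The log2 fold change was 1.56 (standard error 0.13), 2.94-fold higher, and *Tie1* ranked 57th highest among the 9675 genes. The ratio of *Tie1* to *Tek* per length was 2.06, 2.36 and 2.26 in TranspCtrl and 3.75, 4.36 and 4.12 in TranspExer, so the co-receptor was higher relative to Tie2 transcripts in all TranspExer samples.

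*Ptprb* encodes VE-PTP, an endothelial phosphatase that acts on Tie2 and on VE-cadherin complexes. It stood at 5.86, 4.31 and 5.25 CPM in TranspCtrl and at 17.5, 18.7 and 19.8 CPM in TranspExer, from 84 to 120 and from 321 to 398 counts. The TranspExer samples were all high and close together, whereas the TranspCtrl samples were more spread, with replicate 2 the lowest. The log2 fold change was 1.86 (standard error 0.14), 3.62-fold higher, and *Ptprb* ranked 29th highest among the 9675 genes. Relative to *Tek* per length, *Ptprb* stood at 0.599 ± 0.11 in TranspCtrl and 1.35 ± 0.112 in TranspExer (SD, n = 3 each).

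*Svep1* encodes a large extracellular matrix protein, made by mesenchymal cells, that binds Tie1. It stood at 68.5, 90.5 and 84.4 CPM in TranspCtrl and at 54.7, 58.6 and 61.9 CPM in TranspExer, with 1402 to 1815 and 1008.9 to 1247 counts. The groups did not overlap, and TranspCtrl replicate 1 lay between the other TranspCtrl samples and the TranspExer samples. The log2 fold change was -0.47 (standard error 0.11), 1.39-fold lower in TranspExer, and it was -0.58 without TranspCtrl replicate 1. For the other genes, leaving out that sample gave 2.20 for *Angpt2*, -0.24 for *Angpt1*, 0.68 for *Tek*, 1.50 for *Tie1* and 1.96 for *Ptprb* on the log2 scale.

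The order of the TPM levels differed between the groups. In TranspCtrl, from high to low, the means were 33.7 ± 3.55 for *Angpt4*, 24.0 ± 1.9 for *Angpt2*, 14.7 ± 2.15 for *Svep1*, 9.75 ± 0.163 for *Angpt1*, 5.76 ± 0.655 for *Tie1*, 2.58 ± 0.154 for *Tek* and 1.54 ± 0.221 for *Ptprb* (SD, n = 3). No neighbours in this order overlapped. In TranspExer *Angpt2* led at 104.0 ± 6.21 TPM (SD, n = 3), followed by *Tie1* at 16.6 ± 2.28 and *Angpt4* at 15.4 ± 0.847, which overlapped each other. *Svep1* at 10.3 ± 0.791, *Angpt1* at 8.01 ± 0.585, *Ptprb* at 5.46 ± 0.409 and *Tek* at 4.06 ± 0.474 TPM (SD, n = 3) followed without overlap. *Angpt4* thus stood first in TranspCtrl and behind *Angpt2* and *Tie1* in TranspExer, and *Ptprb* and *Tek* exchanged places. The exchange of *Ptprb* and *Tek* depends on the gene lengths used. *Ptprb* has 7016 bases by the deposited length and 13333 by merged exons, where *Tek* has 4654 and 4712.

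**Figure D3:**
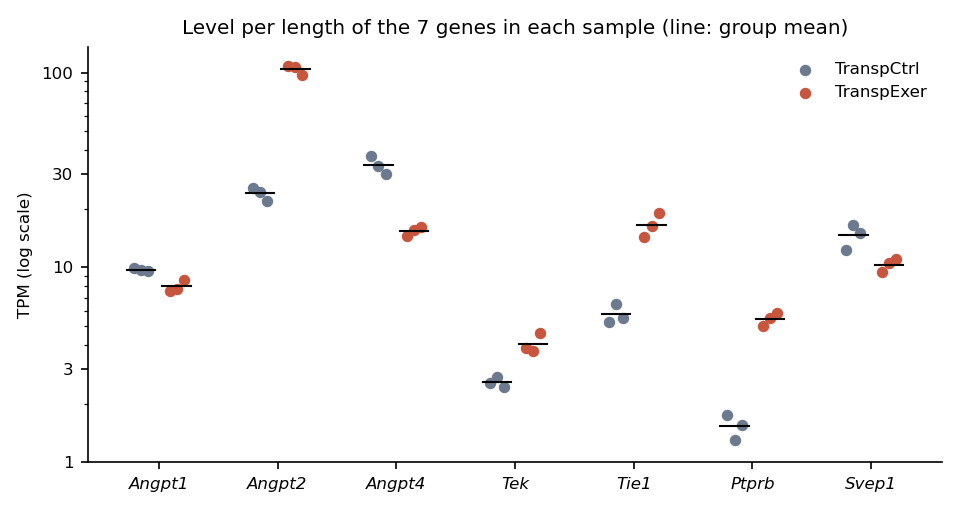
TPM (log scale) of the 7 genes in each sample, with a line at each group mean. *Angpt2* reaches 96.9 to 108.4 TPM in TranspExer, the highest level among the 7 genes, and *Ptprb* is lowest in TranspCtrl, at 1.31 to 1.75 TPM.

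The plot of TPM levels places receptors and ligands on a common scale. Per length, *Angpt2* stood at 9.32 ± 0.647 times *Tek* in TranspCtrl and at 25.9 ± 4.24 times *Tek* in TranspExer, and *Angpt1* at 3.78 ± 0.229 and 1.98 ± 0.0971 times *Tek* (SD, n = 3 each). Transcripts of the sprouting ligand were thus more abundant relative to the receptor in TranspExer, and those of the quieting ligand less.

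*Angpt2*, *Tek*, *Tie1* and *Ptprb* are genes of endothelial cells, and markers of these cells moved in the same direction. All 22 pan-endothelial markers were detected, all were higher in TranspExer, 16 were upregulated DEGs by edgeR and also by DESeq2, with a median log2 fold change of 1.54 against -0.02 over all tested genes. Their summed level was 327.8 to 415.7 CPM in TranspCtrl and 1135.0 to 1180.5 CPM in TranspExer, and no marker was at 0 in all samples. In bulk samples, more cells of a type and more RNA per cell cannot be told apart. Examples were *Robo4*, a guidance receptor of endothelial cells (log2 fold change 2.59, standard error 0.17, adjusted p = 6.19e-05), *Plvap*, a component of endothelial diaphragms (2.42, adjusted p = 7.65e-05), *Emcn*, the sialomucin endomucin (1.52, adjusted p = 5.25e-05), and *Kdr*, the main VEGF receptor gene (1.55, adjusted p = 7.57e-05), all from edgeR. Without TranspCtrl replicate 1, 17 of these markers were upregulated DEGs.

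Set against this sum, the 7 genes fell into distinct groups. Per 1000 CPM of pan-endothelial markers, *Tie1* stood at 31.3, 30.0 and 27.8 CPM in TranspCtrl and at 25.9, 28.3 and 31.7 CPM in TranspExer, so the groups overlapped. *Ptprb* stood at 17.9, 10.4 and 13.4 and at 15.4, 16.4 and 16.7 on this scale, and the groups overlapped as well. *Angpt2* stood at 133.0, 98.5 and 96.2 in TranspCtrl and at 168.9, 161.2 and 140.9 in TranspExer. It was thus still higher in every TranspExer sample, 1.44 times on average and 1.61 times without TranspCtrl replicate 1. *Tek* was lower on this scale, at 15.2 ± 1.77 in TranspCtrl and 7.99 ± 0.702 in TranspExer (SD, n = 3 each), the opposite of its direction in CPM. *Angpt1*, *Angpt4* and *Svep1* stood at 0.273, 0.151 and 0.237 times their TranspCtrl level. The marker sum itself was 3.04 times as high in TranspExer, so a gene with equal CPM in both groups would also be lower on this scale. Leaving out *Cdh5*, *Eng* and *Pecam1*, the most abundant markers, a choice made after the data were seen, gave 1.43 times for *Angpt2*, 0.521 for *Tek*, 0.958 for *Tie1* and 1.16 for *Ptprb*. The part that endothelial cells had in the differences in CPM was not tested.

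**Figure D4:**
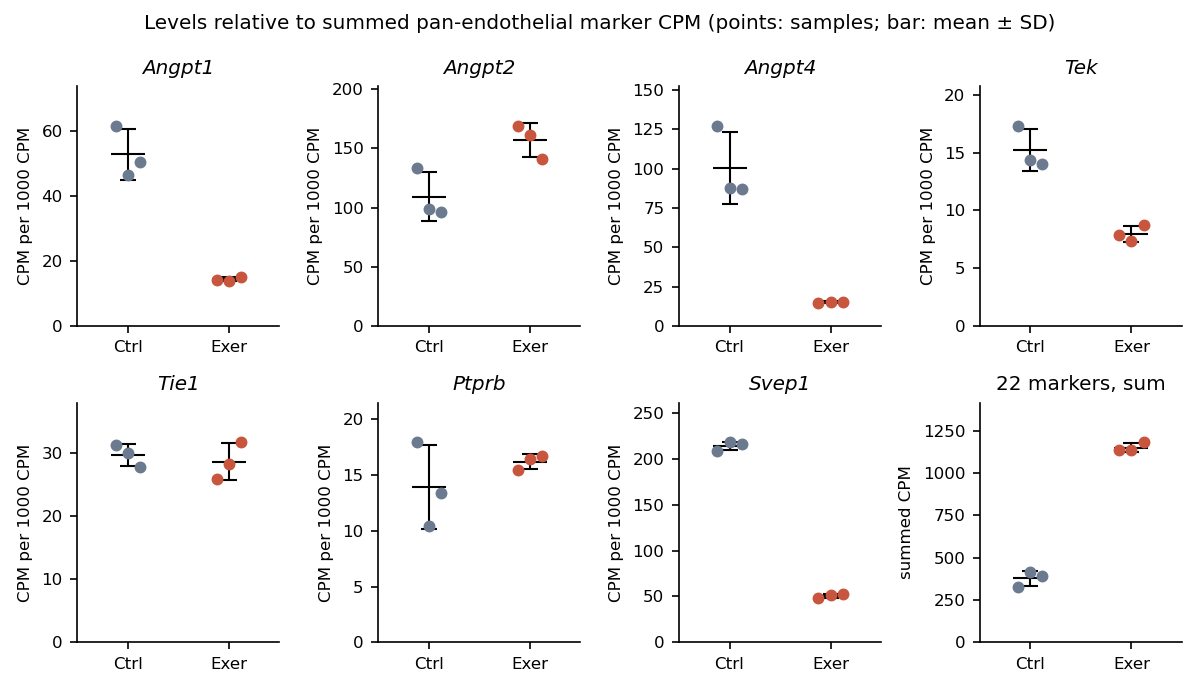
CPM of each gene per 1000 CPM of summed pan-endothelial markers in the 6 samples, with mean ± SD (linear axes from 0). The last panel gives the summed CPM of the 22 markers. *Tie1* and *Ptprb* overlap between groups, *Angpt2* is higher and the other 4 genes are lower in TranspExer.

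The plot of levels per endothelial marker sum shows that *Tek* moved apart from *Tie1* on this scale. Its marker sum panel gives 378.3 ± 45.4 CPM in TranspCtrl and 1150.3 ± 26.2 CPM in TranspExer (SD, n = 3 each).

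Other genes of the pathway came from 4 lists of 68 genes in all, of which 62 were tested. The lists hold the proteins that pass on the Tie signal, partner receptors and proteases, the angiopoietin-like family, and genes of sprouting tip cells. Of the 62, 12 were upregulated DEGs by edgeR and 0 were downregulated. With DESeq2 the counts were also 12 and 0, and at an unadjusted p under 0.05 edgeR gave 32 higher and 3 lower. The median log2 fold change was 0.32, where the median of all tested genes was -0.02 and 48.4% of them were higher. In total, 49 of the 62 were higher in TranspExer.

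Among genes that pass on the Tie signal, 1 of 35 tested was an upregulated DEG and the median log2 fold change was 0.14. It was *Nos3*, the endothelial nitric oxide synthase gene (6.44 ± 1.21 CPM in TranspCtrl and 13.8 ± 0.734 CPM in TranspExer, SD, n = 3 each; log2 fold change 1.10, edgeR adjusted p = 0.0014). Without TranspCtrl replicate 1 its log2 fold change was 1.00, just under the limit, and no gene of the list was then a DEG. By the adjusted p-value alone, 7 were higher and 1 was lower, namely *Grb14*, an adaptor gene (-0.85, adjusted p = 0.00965). The antisense neighbour of *Nos3*, *Atg9b*, had 13 to 27.07 counts per sample. Among all tested genes 3.5% were upregulated DEGs and 16.6% were higher by the adjusted p-value alone, and the counts of this list lay near these shares.

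Partners and proteases of the axis included 4 upregulated DEGs of 11 tested, with a median log2 fold change of 0.63. *Cdh5* encodes VE-cadherin, the junction protein that VE-PTP acts on, and its log2 fold change was 2.02 (edgeR adjusted p = 0.00023). *Kdr* is given above, and *Pear1*, which encodes a receptor of platelets and endothelial cells, had 1.59 (adjusted p = 0.000737). *Itgb3*, an integrin subunit gene, had 1.09 (adjusted p = 0.000344). Of the genes tested in this list, 7 were higher by the adjusted p-value alone.

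Of the angiopoietin-like family, whose proteins resemble the ligands but do not bind Tie2, 3 of 7 genes passed the low-count filter and 0 were DEGs by edgeR or DESeq2. *Angptl4*, an inhibitor of lipoprotein lipase, was higher by the adjusted p-value alone (log2 fold change 0.64, adjusted p = 0.0117) and *Angptl2* lower (-0.54, adjusted p = 0.00129), and the same 2 genes passed an unadjusted p under 0.05. The median log2 fold change of the list was -0.22.

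Tip cells lead a growing vessel sprout, and *Angpt2* is one of their known genes. Of 13 listed tip cell genes, 7 were upregulated DEGs and 12 were higher by the adjusted p-value alone, against 3.5% and 16.6% of all tested genes. Their median log2 fold change was 1.01, below the 1.54 of the pan-endothelial markers. Whether tip cell genes differed apart from endothelial markers in general was not tested. *Apln*, the apelin gene, rose from 71.2 ± 11.3 to 304.1 ± 10.6 CPM (SD, n = 3 each), with a log2 fold change of 2.09 (edgeR adjusted p = 4.66e-05). *Esm1*, a secreted proteoglycan gene, rose by 1.47 (adjusted p = 6.36e-05) and *Dll4*, a Notch ligand gene, by 1.18 (adjusted p = 0.000105) on the log2 scale. *Mcam*, which encodes a cell adhesion molecule also carried by pericytes, had 1.01 (adjusted p = 0.000136) and was under the 2-fold limit in 7 alternatives, at 0.92 with library size only and at 0.95 without TranspCtrl replicate 3.

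**Figure D5:**
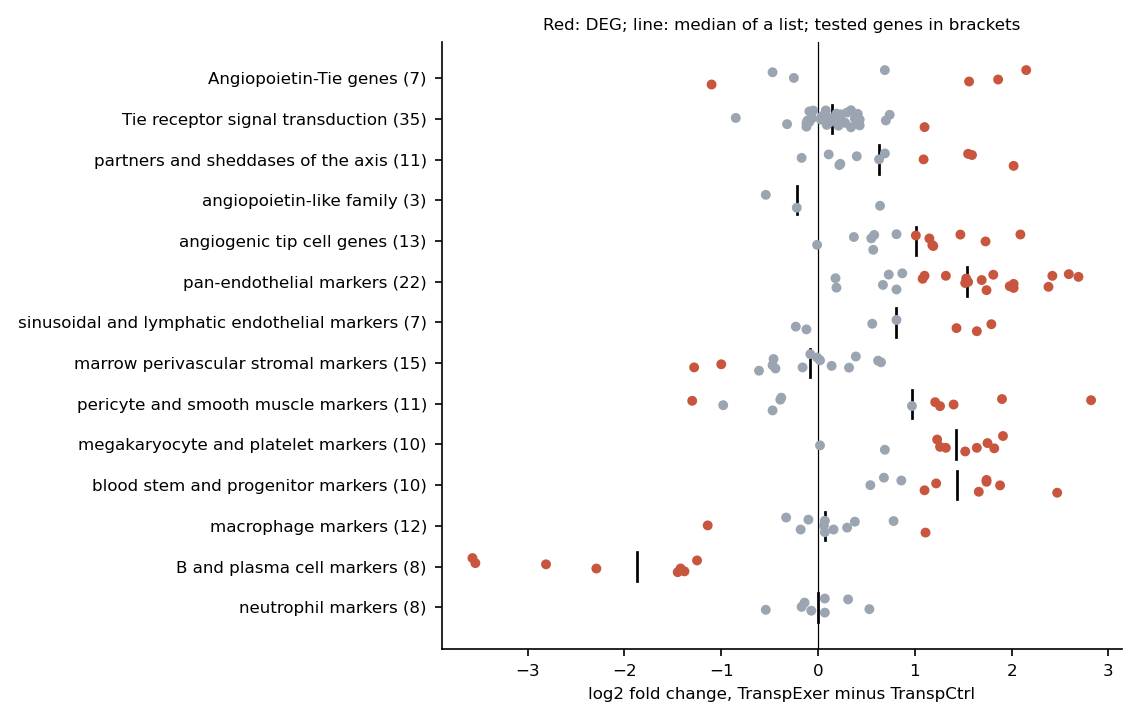
Log2 fold change (TranspExer minus TranspCtrl) of the 7 genes and of the tested genes of 13 lists. Points are genes, red points are DEGs and black lines are list medians. The medians of the pan-endothelial and blood progenitor lists are 1.54 and 1.44, and that of the B and plasma cell list is -1.87.

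The plot of listed genes sets the 7 genes beside other cell types that the cultures could hold. Among sinusoidal and lymphatic endothelial markers, 3 of 7 tested were upregulated DEGs (median log2 fold change 0.81). They were *Stab2*, a scavenger receptor gene (1.43, edgeR adjusted p = 6.19e-05), *Flt4*, a VEGF receptor gene (1.79, adjusted p = 0.00101), and *Lyve1*, a hyaluronan receptor gene (1.64, adjusted p = 0.0184). The last had under 1 CPM in both groups, and it was not a DEG without TranspCtrl replicate 3 (1.49) or without TranspExer replicate 2 (1.35) or 3 (1.69). The summed level of this list was 435.4 to 486.2 CPM in TranspCtrl and 422.2 to 440.7 CPM in TranspExer. Most of this sum was *Fcgr2b*, an Fc receptor gene that B cells and macrophages also express, at 435.3 ± 25.7 CPM in TranspCtrl and 371.7 ± 7.02 CPM in TranspExer (SD, n = 3 each; log2 fold change -0.23, edgeR adjusted p = 0.0612).

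*Angpt1* and *Svep1* are made by stromal and perivascular cells. Of 15 stromal markers, 2 were downregulated and 0 upregulated DEGs by edgeR and by DESeq2 (2 were higher and 6 lower at an unadjusted p under 0.05, and 2 higher and 5 lower by the adjusted p-value alone), with a median log2 fold change of -0.08 and a summed level of 14676.0 to 22940.6 CPM in TranspCtrl and 14183.2 to 15474.0 CPM in TranspExer. The DEGs were *Pdgfra*, a growth factor receptor gene (which fell by 1.00 on the log2 scale, edgeR adjusted p = 7.67e-05, and just missed the fold limit without TranspCtrl replicate 2 or TranspExer replicate 1), and *Col3a1*, a fibrillar collagen gene (-1.28, adjusted p = 8.1e-05). Pericyte and smooth muscle markers were divided, with 5 of 11 upregulated and 1 downregulated. The latter was *Cnn1*, a contractile gene of smooth muscle (-1.30, adjusted p = 0.000372), and in several alternatives 2 were downregulated. Upregulated were *Cspg4* (2.82, adjusted p = 6.65e-05), *Rgs5* (1.90, adjusted p = 0.000135), *Kcnj8* (1.40, adjusted p = 0.000233) and *Abcc9* (1.21, adjusted p = 0.000218), all markers of pericytes, and *Notch3* (1.26, adjusted p = 0.000375). Their summed level, dominated by other members, was 2751.1 to 3245.9 CPM in TranspCtrl and 1945.9 to 2174.0 CPM in TranspExer. The part of these cells in the *Angpt1* and *Svep1* values was not tested.

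Blood-forming cells and megakaryocytes can also express *Angpt1* or *Tek*. Of 10 blood stem and progenitor markers, 7 were upregulated DEGs (median log2 fold change 1.44), and their summed level was 241.8 to 340.4 CPM in TranspCtrl and 1407.8 to 1538.6 CPM in TranspExer. *Kit*, the stem cell factor receptor gene, had a log2 fold change of 1.74 (edgeR adjusted p = 2.35e-05). Of 10 megakaryocyte and platelet markers, 8 were upregulated DEGs (median 1.42), with sums of 282.1 to 333.9 and 544.3 to 576.4 CPM, among them *Itga2b*, an integrin gene of platelets (1.52, adjusted p = 8.85e-05). Their part in the *Angpt1* and *Tek* values was not tested.

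In the same table, B and plasma cell markers were lower in TranspExer, with 8 of 8 as downregulated DEGs. Their sum was 3561.1 to 6057.1 CPM in TranspCtrl, highest in replicate 1, and 580.0 to 628.6 CPM in TranspExer. Macrophage markers were divided, with 8 of 12 higher and 4 lower and a median log2 fold change of 0.07. By edgeR 1 was an upregulated and 1 a downregulated DEG, and by the adjusted p-value alone 3 were higher and 2 lower. The downregulated DEG was *Lyz2*, the lysozyme gene (-1.14, edgeR adjusted p = 0.00873). *Lyz2* was not a DEG without TranspCtrl replicate 1 (-0.80) or without TranspExer replicate 3. Of 8 neutrophil markers 0 were DEGs by edgeR or DESeq2, and 1 was higher (*Ngp*, 0.53) and 1 lower (*Ly6g*, -0.54) by the adjusted p-value alone, as at an unadjusted p under 0.05. The 6 erythroid markers did not pass the low-count filter, with a summed level of 0.195 to 0.558 CPM.

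The genes whose log2 CPM was most like that of each of the 7 genes were found by Pearson's r over the 6 samples, among 9669 other tested genes with a mean of at least 10 CPM. These correlations are across samples that fall into 2 groups, so any gene that differs between the groups scores high, and they are given as a description. For *Angpt2* they were *Emcn* (r = 0.9993), *Evi2b* (0.9990) and *Pecam1* (0.9986), of which *Emcn* and *Pecam1* are endothelial genes and *Evi2b* is a leukocyte gene. For *Ptprb* they were *Fermt3* (0.9996), *Loxl3* (0.9981) and *Lrrc25* (0.9968), and for *Tie1* they were *Idua* (0.9992), *Kcnk13* (0.9992) and *Ap1g2* (0.9986). *Angpt4* was most like *Rnf170* (0.9988), *Ikbkg* (0.9986) and *Aldoc* (0.9985), and *Svep1* most like *Neo1* (0.9982), *Bmp1* (0.9977) and *Rbms2* (0.9968). *Tek* was most like *Snx27* (0.9957), *Chaf1b* (0.9940) and *Fam122b* (0.9924), and *Angpt1* most like *Bphl* (0.9926), *Cplane1* (0.9923) and *Paip2b* (0.9921). A value over 0.99 was reached by 107 genes for *Angpt2*, 98 for *Tie1*, 86 for *Angpt4*, 54 for *Ptprb*, 20 for *Svep1*, 6 for *Tek* and 3 for *Angpt1*.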

How the data were processed

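RNA-Seq of BM MSCs was analysed in 3 TranspCtrl and 3 TranspExer samples, grouped by the sample labels. For 56980 genes, the authors deposited expected counts, which are estimates without normalization (10.1% to 12.2% of a sample's values were not whole), and a gene length. The labels' processing notes name the build mm10. The aligner, the counting tool and its use of strand were not given in the sources used here, and the labels name a stranded mRNA kit whereas the paper names a TruSeq kit. Of the gene identifiers, 52125 were found in GENCODE M21 and 4855 were not.

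Counts were rounded and tested with edgeR 4.0.16 in R 4.3.3 by the quasi-likelihood test. The low-count filter was filterByExpr, normalization was by TMM, the model held the group alone, and p-values of 15190 genes were adjusted by Benjamini-Hochberg. Standard errors were the log2 fold change over the root of F. An exact two-sided permutation test of 3 against 3 samples reaches 0.1 at best. CPM were scaled with TMM factors, and TPM used the deposited lengths. Coding sequences were aligned with mafft 7.526. The tests were checked on simulated data.

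The 7 genes and the lists were chosen with earlier results of these data known. Named are all 7 genes, genes overlapping them, from each list the DEGs with the lowest adjusted p-values (4 at most), and the 3 genes most like each of the 7. *Atg9b*, *Col1a1*, *Ptprc*, *Csf1r*, *Eng*, *Pecam1* as a marker, *Grb14*, *Angptl2*, *Angptl4*, *Cnn1*, *Notch3*, *Fcgr2b*, *Mpo*, *Ngp* and *Ly6g* were named outside this rule after their values were seen. Alternatives were DESeq2 1.42.0, upper-quartile normalization, library size only, other low-count filters, the adjusted p-value alone, merged exon length, the replicate block and each sample left out. Leaving out the 3 most abundant endothelial markers, or a TranspCtrl sample on the scale per endothelial marker, was added after the data were seen. The result of 1 marker gene is not reported here.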

Additional observations from a re-analysis of the deposited data

How the results depend on the processing

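The log2 fold changes of the 7 genes and of the listed genes named by the rule, and the direction of the *Angpt2* to *Angpt1* ratio, kept their sign under the alternatives tried. By the adjusted p-value alone, 2523 genes were higher and 2361 lower in TranspExer, so that higher genes were the more numerous, unlike among DEGs (531 and 802), with 27 higher and 2 lower in the 4 pathway lists, and 52 higher and 20 lower in the 10 marker lists, where 40 and 12 were DEGs. The log2 fold change of *Angpt1* was -0.33 with upper-quartile normalization and -0.34 with library size only, and -0.32 to -0.23 when each sample was left out in turn. Per merged exon length, the *Angpt2* to *Angpt1* ratio was 2.91 in TranspCtrl and 15.4 in TranspExer. Over all alternatives, the log2 fold change was 2.06 to 2.20 for *Angpt2*, -1.19 to -1.01 for *Angpt4*, 0.58 to 0.74 for *Tek*, 1.44 to 1.64 for *Tie1*, 1.75 to 1.96 for *Ptprb* and -0.58 to -0.38 for *Svep1*. With each sample left out, upregulated DEGs numbered 443 to 579 and downregulated DEGs 671 to 852.

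Replicate numbers were not stated to pair samples, and same-numbered samples had correlations of 0.0247, -0.00167 and 0.0416 between their deviations, so they were not treated as pairs. With the replicate block, 519 genes were upregulated and 767 downregulated, and *Angpt2* had a log2 fold change of 2.15. Not every sample correlated best with its own number. *Tek* and *Ptprb* rest on 84 to 398 counts per sample, so small differences between samples of one group are not resolved. Whether RNA levels reflect cell numbers, and what the proteins did, was not measured here.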
